A study of Mus musculus with 2 samples.

Results

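The mir-130/mir-301 family (Mir130a, Mir130b, Mir301 and Mir301b) and the mir-148/mir-152 family (Mir148a, Mir148b and Mir152) were examined in midbrain of mouse embryos at embryonic day 16.5. These 7 miRNA genes were taken by their names, a rule that uses no measured value, and are 7 of the 1973 miRNA genes in the count tables. Mir301 is the gene of mir-301a. The tissue came from B6NCrl mice, an inbred strain, and was pooled from healthy male and female embryos. The labels name no treatment, mutation or transgene. Both libraries belong to 1 group. The pool behind replicate 2 held 37 embryos, and that behind replicate 1 was of a size not given in the sources used here. Since the libraries came from pools, their spread is that between pools and preparations, not between single embryos.

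MicroRNAs are short RNAs cut from a hairpin precursor. Bases 2 to 8 of the mature strand, the seed, pair with target mRNAs and lower their translation and stability. Members of a family share the seed and so share many predicted targets. The mir-130/mir-301 family is expressed in many tissues and is known for repressing the mRNA of PPARG, a regulator of fat cell differentiation, and, in human endothelial cells, the homeobox genes GAX and HOXA5. The mir-148/mir-152 family is known for repressing the mRNA of DNMT1, the maintenance DNA methyltransferase. Target mRNAs and host gene transcripts were not measured here.

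The mature strands show how the families are defined and how alike their members are. RefSeq (GRCm38.p6) held a hairpin and a 5p arm for all 7 genes and a 3p arm for 6. miR-301b-3p is named only. The 3p arms follow from 5′ to 3′, with the seed in capitals.
miR-130a-3p: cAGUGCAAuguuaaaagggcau
miR-130b-3p: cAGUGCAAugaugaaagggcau
miR-301a-3p: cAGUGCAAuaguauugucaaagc
miR-148a-3p: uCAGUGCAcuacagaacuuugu
miR-148b-3p: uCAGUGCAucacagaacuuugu
miR-152-3p: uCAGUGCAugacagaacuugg

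The printed mir-130/mir-301 arms carried the seed AGUGCAA and all 3 mir-148/mir-152 arms carried CAGUGCA. Among the 1738 mature arms of the RefSeq table, 7 (0.403%) had AGUGCAA at bases 2 to 8 and 3 (0.173%) had CAGUGCA there. Bases 1 to 7 of each of the 3 printed mir-130/mir-301 arms read CAGUGCA, the seed of the mir-148/mir-152 family moved by 1 base. Counting from 1 at the 5′ end, miR-130a-3p and miR-130b-3p differed by U11A and A13G, and miR-301a-3p differed from miR-130a-3p at 10 of 22 positions. miR-148a-3p and miR-148b-3p differed by C9U and U10C, and miR-148b-3p and miR-152-3p by C10G and U20G. All of these changes lie outside the seed.

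Both arms of a hairpin add to 1 gene count. The hairpins of the most abundant gene and of the gene with the most similar 3p arm are shown with both mature arms in capitals, the 5p arm on the left.
Mir130a: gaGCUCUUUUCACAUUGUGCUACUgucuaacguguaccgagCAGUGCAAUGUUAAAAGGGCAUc
Mir130b: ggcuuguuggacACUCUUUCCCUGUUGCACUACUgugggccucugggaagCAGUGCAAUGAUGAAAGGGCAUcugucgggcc
The 5p arms of the mir-301 pair, with bases 2 to 8 in capitals, differed by U10A, U11G and A12G.
miR-301a-5p: gCUCUGACuuuauugcacuacu
miR-301b-5p: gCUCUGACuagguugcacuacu

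The counts do not say which arm a read came from, so a level here belongs to the hairpin gene and not to 1 mature strand. Reads that aligned to several places were 35.3% of all reads in replicate 1 and 36.5% in replicate 2, and they are not listed by gene. The longest run that a member's hairpin shares with any of the other hairpins in the RefSeq table was 13 to 17 bases, the longest being that of Mir130a with Mir6389. The listed mature arms are 21 to 24 bases long and share at most 15 bases in a row with another hairpin. No listed arm of a member occurs in another gene of that table. miR-301b-3p is not listed, so the values for arms do not cover it, and only exact runs were searched. Other places in the genome were not searched, and the part of reads with several places in these levels was not tested.

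The genes lie at 6 sites. On mm10, in the GENCODE M21 annotation, Mir130a (ENSMUSG00000065484.1) is at chr2:84741115-84741178 on the minus strand, outside any other annotated gene. Mir148a (ENSMUSG00000065505.1) is at chr6:51269812-51269910 on the minus strand and also lies outside other genes. Mir301 (ENSMUSG00000065589.1) is at chr11:87113004-87113089 on the plus strand, in an intron of Ska2, a gene of the spindle and kinetochore complex. Mir152 (ENSMUSG00000065515.1) is at chr11:96850393-96850465 on the plus strand, in an intron of Copz2. Mir148b (ENSMUSG00000065560.1) is at chr15:103285125-103285221 on the plus strand, in an intron of Copz1. Copz1 and Copz2 are paralogs that encode the zeta subunits of the coatomer, the coat of vesicles that move from the Golgi to the endoplasmic reticulum. The remaining site is a cluster of 2 genes. Mir130b (ENSMUSG00000065572.1, chr16:17124061-17124142) and Mir301b (ENSMUSG00000076288.1, chr16:17124400-17124496) lie 257 bases apart on the minus strand, in an intron of the protein-coding gene 2610318N02Rik. No other annotated miRNA gene of the same strand lies within 10 kb of a member.

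Replicate 1 had 6151299 sense reads within miRNA genes and replicate 2 had 5312642, and levels are given in CPM, counts-per-million of that total. Folds between genes are thus folds of reads. Whether different sequences gave equal reads per molecule was not tested, and the SD over 2 libraries does not cover it. Intervals in brackets after a level are 95% Wilson intervals and cover counting error only, with reads taken as independent. Reads without molecular identifiers may be copies of 1 molecule, and the intervals are then too narrow. Of the markers of neural cells, 9 of 11 genes had 10 or more reads in each library, led by Mir137, whose arms occur in no other gene of the RefSeq table. The Mir124a genes, known as neuronal, had between 2 and 33 reads per library, and Mir9-2 had 13 and 3. Both arms of Mir9-2 also occur in Mir9-1 and Mir9-3, and the Mir124a genes are known copies of 1 mature strand. Reads with several places are outside the counts, so low counts of such copies are not read against the tissue label. Bulk tissue was measured, so for a gene whose reads have 1 place, fewer cells of a type and less RNA per cell cannot be told apart.

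All 7 genes were detected, with 10 or more reads in each library, against 20.8% of all 1973 genes. They spanned a wide range of levels, from 32.0 and 30.7 CPM for Mir152 to 31196 and 27331 CPM for Mir130a in replicates 1 and 2. The median of the members' mean levels was 219.6 CPM, beside 107.9 CPM over the 411 detected genes. The families stood far apart. The mir-130/mir-301 genes summed to 39996 CPM in replicate 1 and 34666 CPM in replicate 2 (a mean of 3.73% ± 0.377 of miRNA reads, SD, n = 2), and the mir-148/mir-152 genes to 451 and 453 CPM (0.0451% and 0.0453%). The mir-130/mir-301 sum was 88.6-fold that of mir-148/mir-152 in replicate 1 and 76.5-fold in replicate 2, a log2 ratio of 6.36 ± 0.15 (SD, n = 2). For 2 values against 2 the smallest two-sided p of an exact permutation test is 0.33. That value ignores that the genes were read in the same 2 libraries, and a paired test could go no lower. No level was therefore tested against another.

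**Figure D1:**
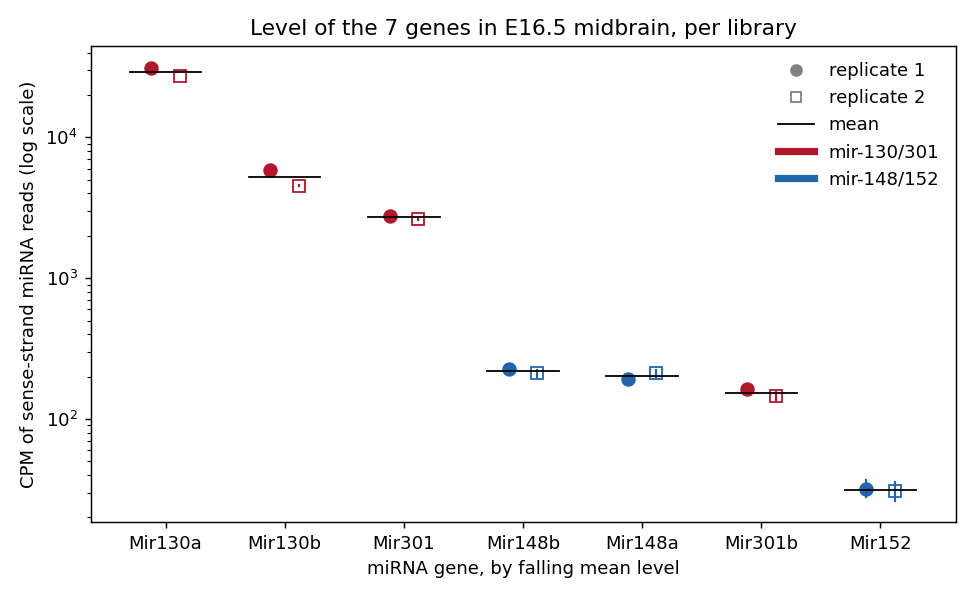
CPM of each gene on a log axis, with replicate 1 as filled circles, replicate 2 as open squares, their mean as a black line and vertical lines for the 95% Wilson interval of each library. Mir130a, Mir130b and Mir301 lie at 2649.9 CPM or more in both libraries, and the other 4 genes lie at 228 CPM or less.

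Mir130a led both families. Its 191896 reads in replicate 1 gave 31196 CPM (31059 to 31334), and its 145201 reads in replicate 2 gave 27331 CPM (27193 to 27470.2), a mean of 29264 ± 2733 (SD, n = 2). By counted reads it was the 7th most abundant of all miRNA genes in each library, between Mirlet7i and Mir149 in mean level. Reads with several places are outside this ranking, so genes with copies elsewhere may rank too low in it. Mir130a held 78.0% of the family's reads in replicate 1 and 78.8% in replicate 2.

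Mir130b, whose 3p arm differs from that of Mir130a at 2 positions, was next. Replicate 1 had 5888 CPM of Mir130b and replicate 2 had 4539.7 CPM, with a mean of 5214 ± 953 (SD, n = 2), and it ranked 35th and 42nd. Its share of the family's reads was 14.7% (95% Wilson interval 14.6 to 14.9) in replicate 1 and 13.1% (12.9 to 13.3) in replicate 2. Mir130a exceeded it 5.30-fold in replicate 1 and 6.02-fold in replicate 2. Together the mir-130 pair held 92.7% and 91.9% of the family's reads.

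The mir-301 genes made up the rest. Mir301 had 2748 CPM in replicate 1, against 2649.9 CPM in replicate 2 (mean 2699 ± 69.3, SD, n = 2), ranked 67th and 66th, and held 6.87% and 7.64% of the family's reads. Mir301b stood at 164 CPM (154 to 174) and 145 CPM (135 to 155), with 0.409% and 0.418% of the family's reads. Mir301 thus exceeded Mir301b 16.8-fold in replicate 1 and 18.3-fold in replicate 2.

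The clustered genes stood far apart in level. Mir130b, which shares its host gene with Mir301b, exceeded it 36.0-fold in replicate 1 and 31.4-fold in replicate 2, a log2 ratio of 5.07 ± 0.14 (SD, n = 2). The cluster summed to 6052 CPM in replicate 1 and 4684 CPM in replicate 2, below Mir130a and above Mir301 in both libraries. Both mir-130 genes lay above both mir-301 genes in each library, at shared and at separate sites.

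**Figure D2:**
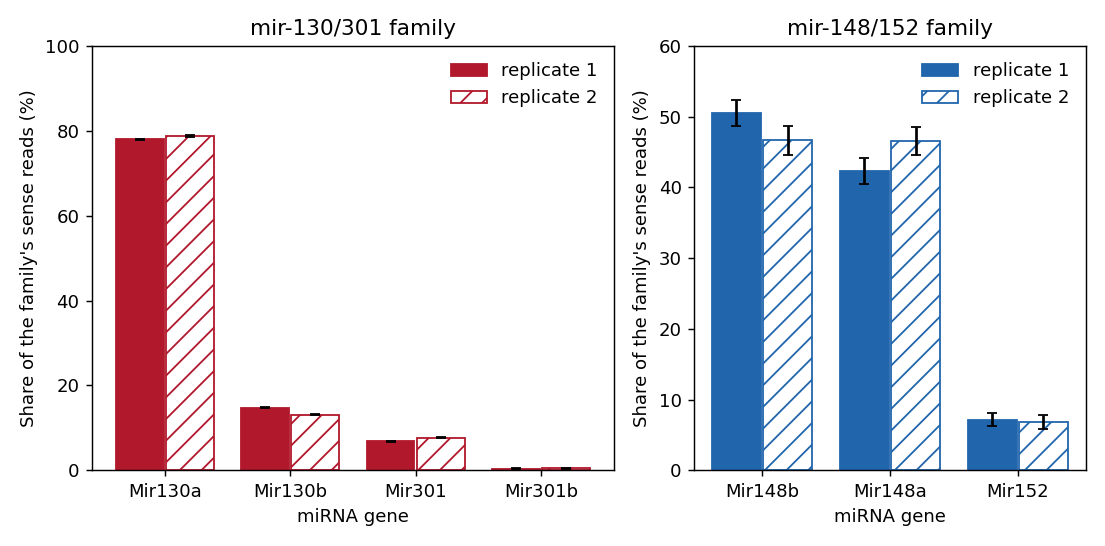
Share of each family's sense reads held by each gene, in percent, with filled bars for replicate 1, hatched bars for replicate 2 and 95% Wilson intervals as error bars. In the left panel Mir130a takes 78.0% and 78.8%, and in the right panel Mir148b takes 50.5% and 46.6%, Mir148a 42.4% and 46.6%, and Mir152 7.10% and 6.77% in replicates 1 and 2.

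In the mir-148/mir-152 family no gene led as clearly. Mir148b held 1403 reads in replicate 1 (228 CPM, 216 to 240.3) and 1122 in replicate 2 (211 CPM, 199 to 224). Mir148a held 1176 reads (191 CPM, 181 to 202) and 1121 reads (211 CPM, 199 to 224). The genes differed 1.19-fold in replicate 1, beyond counting error, and by 1 read in replicate 2. Mir148b thus held 50.5% of the family's reads in replicate 1 and 46.6% in replicate 2, and Mir148a 42.4% and 46.6%. Their means, 219.6 ± 11.9 CPM for Mir148b and 201.1 ± 14.0 CPM for Mir148a (SD, n = 2), lay within 1.09-fold, and the order between them is not resolved by these libraries.

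Mir152 was the lowest of the 7 genes. Its 197 and 163 reads in replicates 1 and 2 gave 32.0 CPM (27.9 to 36.8) and 30.7 CPM (26.3 to 35.8), with a mean of 31.4 ± 0.95 (SD, n = 2). It held 7.10% of its family's reads in replicate 1 and 6.77% in replicate 2. Mir148b exceeded it 7.12-fold and 6.88-fold. Mir152 and Mir148b lie in introns of the paralogs Copz2 and Copz1. The ranges of this pair did not overlap.

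Ordered by mean level, the genes ran Mir130a, Mir130b, Mir301, Mir148b, Mir148a, Mir301b and Mir152. The ranges of neighbours in this order did not overlap, but those of Mir148b and Mir148a touched to within 1 CPM. The largest step, 12.3-fold between means, lay between Mir301 and Mir148b, and the others ran from 1.09-fold to 5.61-fold. Mir301b, at 154 CPM on average, lay among the genes of the other family, 1.30-fold below Mir148a and 4.92-fold above Mir152. A small RNA read covers a whole mature strand, so counts were not divided by length. Divided by annotated hairpin length, which is 64 to 99 bases, the order of the 7 genes was the same.

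Each gene is set beside the detected genes next to it in mean level over the 2 libraries. Mir181a-1, with a mean of 5423 CPM, stood next above Mir130b, and Mirlet7b, with 5137 CPM, next below it. Mirlet7b was lower in replicate 1 (4600.0 and 5674 CPM in replicates 1 and 2), the opposite order to Mir130b, so that near means did not come with like values in each library. Mir484 and Mir128-1 flanked Mir301, and Mir214 and the red blood cell miRNA Mir451a flanked Mir301b. Mir29a and Mir302d flanked Mir148b. Mir217 and the sensory organ miRNA Mir96 flanked Mir148a, and Mir205 and Mir34b flanked Mir152. Nearness in level is a likeness of 2 values and says nothing of shared control.

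**Figure D3:**
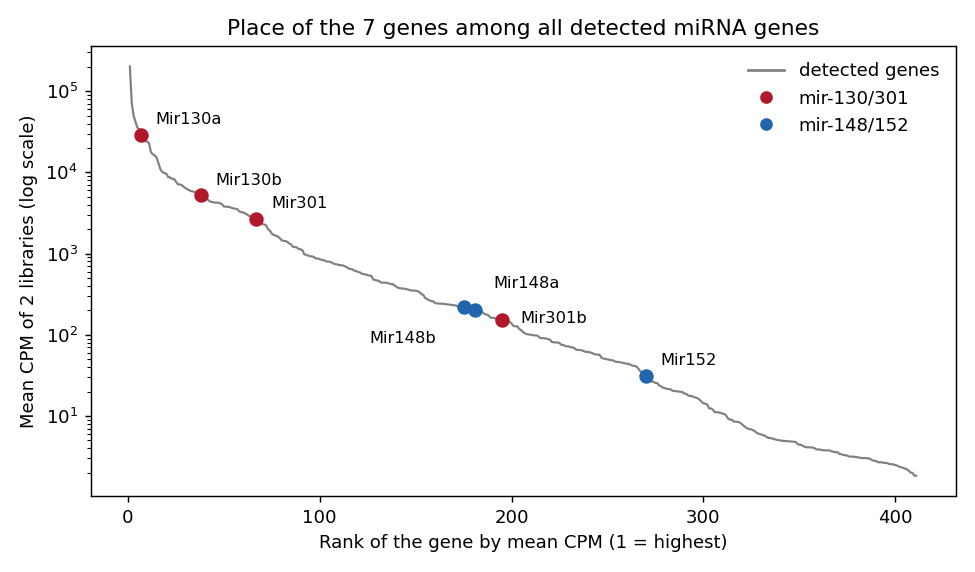
Mean CPM of the 411 detected miRNA genes on a log axis against their rank, with the 7 genes as coloured points. Mir130a lies at rank 7 on the steep part of the curve, Mir130b and Mir301 at ranks 38 and 67, and the other 4 genes between ranks 175 and 270.

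Other annotated genes with the mir-130/mir-301 seed had no counted reads. Mir130c, Mir6341 and Mir6389 were at 0 reads in both libraries, which allows up to 0.488 CPM in replicate 1 and 0.565 CPM in replicate 2 by a floor of 3 reads per library. Mir721, which also carries this seed, was not among the counted genes, so it has no level here. The hairpin of Mir6389 shares a run of 15 bases with miR-130a-3p, the longest run of any listed member arm. Reads that aligned to several places are outside these counts, so 0 reads limits the reads counted to these genes and not their expression. For CAGUGCA, no gene beyond Mir148a, Mir148b and Mir152 had an arm in the RefSeq table.

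The libraries were then compared with each other for every detected gene. The question was how far 2 pools of the same tissue differed, and no condition was compared. By a two-sided exact binomial test of the reads with Benjamini-Hochberg adjustment over 411 genes at 0.05, 29.2% of genes were higher in replicate 1 and 18.2% in replicate 2. The test covers counting error only, with reads taken as independent, so deep counts pass at small differences. It called 89.0% of the 91 genes at 1000 CPM or more, and 35.6% of the 320 genes below that. Ratios are log2 of replicate 1 over replicate 2, and bracketed ranges are 95% Clopper-Pearson limits of the read split.

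All 4 mir-130/mir-301 genes were higher in replicate 1 by this test, of which Mir301 and Mir301b lost the call under other scalings, and in the mir-148/mir-152 family 1 gene was higher in replicate 2. Mir130b had the largest ratio at 0.38 (0.35 to 0.40, adjusted p = 1.75e-216), followed by Mir130a at 0.19 (0.18 to 0.20, adjusted p of at most 6.85e-299). Mir301b had a ratio of 0.18 (0.04 to 0.31, adjusted p = 0.024) and Mir301 of 0.05 (0.02 to 0.08, adjusted p = 0.00387). Mir148a had a ratio of -0.14 (-0.26 to -0.02, adjusted p = 0.0407), the only member higher in replicate 2. Mir148b, at 0.11 (-0.003 to 0.23, adjusted p = 0.105), and Mir152, at 0.06 (-0.24 to 0.37, adjusted p = 0.831), did not pass. The median ratio of the 7 genes was 0.11, beside 0.06 over all detected genes, of which 59.9% had a ratio above 0. These counts are therefore read against a background in which more genes were higher in replicate 1 as well.

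Scaling decided some of these calls. With TMM factors the calls over all genes were 95 higher in replicate 1 and 90 in replicate 2, against 120 and 75 with summed counts. Mir130a (0.14), Mir130b (0.33) and Mir148a (-0.19) were still called, while Mir301 had a ratio of 0.00405 (adjusted p = 0.915) and Mir301b of 0.13 (adjusted p = 0.129). By edgeR's exact test at the dispersion trend over all genes, 0.973% of genes passed, 4 of 411 (9 at an unadjusted p under 0.05), and 0 of the 7 members. That trend was estimated from the same 2 libraries, so the differences tested also set the spread they were judged by, and a miss there does not show that a gene's difference lies within the spread between pools. The trend put the coefficient of variation between libraries at 9.97% for Mir130a, 10.8% for Mir130b, 11.3% for Mir301 and 19.3% to 23.2% for the other 4 genes. By the binomial test the difference between libraries is thus beyond counting error for Mir130a, Mir130b and Mir148a under each scaling that was tested. These were summed, TMM-scaled and RLE-scaled totals and totals without the most abundant gene. The binomial test was not run with counts scaled to all reads. Mir148a had an adjusted p of 0.0575 by the binomial test when genes with 1 read or more entered the adjustment. With 1 library on each side, whether these differences exceed the spread between pools could not be tested independently.

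**Figure D4:**
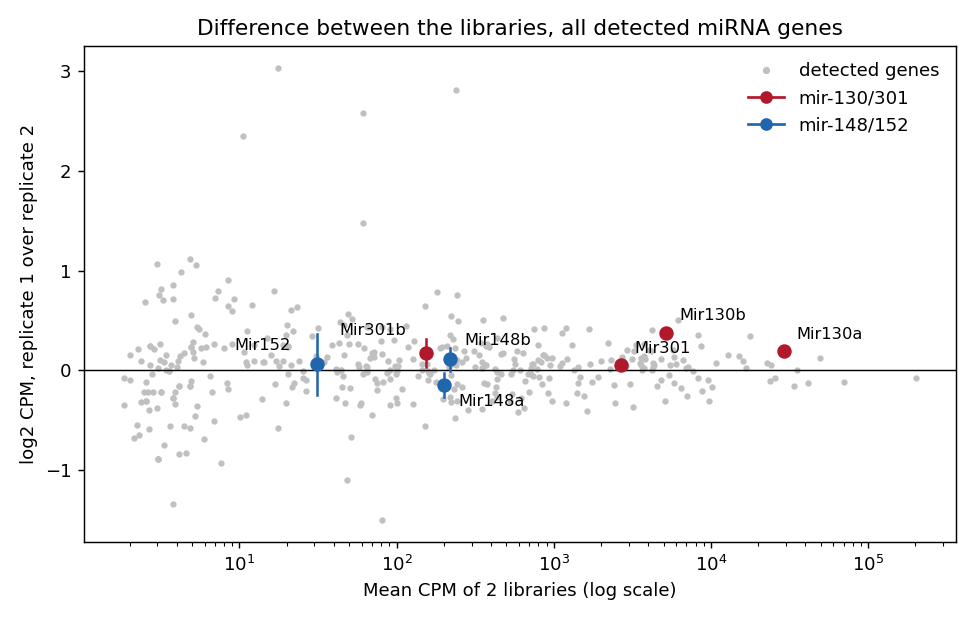
Log2 ratio of CPM, replicate 1 over replicate 2, against mean CPM on a log axis for the 411 detected genes in grey and the 7 genes in colour, with 95% counting limits as vertical lines. Mir130b at 0.38 and Mir130a at 0.19 lie above 0 with limits that exclude 0, and Mir148a at -0.14 lies below 0.

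Mir130b was among the abundant genes that differed most. Of the 91 genes at 1000 CPM or more, 5 had a ratio of larger size, 4 of them higher in replicate 1, and the ratios of the 91 ran from -0.40 to 0.51 with a median size of 0.12. Mir20a, of the mir-17-92 cluster, had the highest ratio at 0.51. Mir301b, the neighbour of Mir130b, had a ratio of smaller size at 0.18, with limits that do not reach that of Mir130b.

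Markers of other cell types were summed in each library. The epithelium list, detected in 7 of 7 genes, summed to 1327 CPM in replicate 1 and 689 CPM in replicate 2. Mir203 gave 627 and 546 CPM of this sum, and Mir429 gave 419 and 59.5 CPM. Each gene of the list was higher in replicate 1 by the binomial test. Their log2 ratios ran from 0.20 for Mir203 to 3.03 for Mir200a. The choroid plexus marker Mir204 stood at 2444 and 2016 CPM, and the neural list at 25916 and 24695 CPM. Mir137 alone gave 15865 and 14350 CPM of the neural sum. The genes of the neural list differed in direction, which the sum does not show. Mir137 and Mir153 were higher in replicate 1 by the binomial test, with log2 ratios of 0.14 and 0.13. Mir128-1, Mir128-2 and Mir9-3 were higher in replicate 2 by that test, with log2 ratios of -0.32, -0.23 and -0.30. The other detected genes of the neural list were not called. Reads with several places are outside these sums, so the sums of different lists are not set against each other. The endothelium and vessel wall list, 3 of 3 genes, summed to 29337 CPM in replicate 1 and 30808 CPM in replicate 2, and the blood list, 4 of 4 genes, to 410.3 and 487 CPM. The liver list, 4 of 4 genes, summed to 241 and 227 CPM. The muscle list, detected in 1 of 5 genes, summed to 19.2 and 18.1 CPM, with Mir1a-1, Mir133a-1 and Mir133a-2 at 0 reads. These 3 genes are known to have copies of their main mature strand elsewhere in the genome, so the limit on reads with several places holds for them too. The part of these cell types in the ratios of Mir130a, Mir130b and Mir148a was not tested.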

How the data were processed

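MicroRNA-seq of 2 libraries of inserts below 30 nt was used, 1 count table each. Each deposited table gives raw read counts by miRNA gene on mm10 with annotation release M4, per the description file deposited with it. Its 3 count columns were read as either, sense and opposite strand, since the sense and opposite counts sum to the first in every gene and the larger was taken as sense. Aligner, counter and trimming: not given in the sources used here.

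Sense counts of the 1973 gene rows made up the library totals. Rows for unmapped (15.6% and 15.2% of reads in replicates 1 and 2), multiply placed and unassigned reads (3.99% and 4.14%) stayed out. Symbols and places came from GENCODE M21, also on mm10, which matched 1894 identifiers. All 7 members had the same place in RefSeq GRCm38.p6, the source of sequences.

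CPM, Wilson intervals and the exact binomial test, which was tested on simulated data and adds 0.5 reads in ratios, were computed with pandas 2.3.3, scipy 1.17.1 and numpy 2.4.6 in Python 3.11.15. Scaling factors (TMM 1.02 and 0.983), dispersions from an intercept-only design and exact tests came from edgeR 4.0.16 in R 4.3.3. No p was written below 1e-300. Plots used matplotlib 3.10.9.

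With 1 group no quasi-likelihood contrast existed. A total of 195 genes differed beyond counting error, so the tables are not 1 library deposited in duplicate. The rule for the members uses names alone, but it, the lists and the tests were drawn up with earlier results of these data known. Named genes were the members, genes sharing a seed, nearest genes in level and marker lists. Mir20a was named after its values were seen.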

Additional observations from a re-analysis of the deposited data

Results flagged for a closer look

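Opposite-strand reads, which entered the values only in the repeat with both strands, exceeded the floor of 3 reads at 1 member. Mir130a had 10 such reads in replicate 1 and 3 in replicate 2, which is 0.00521% and 0.00207% of its reads on either strand. Mir152 had 0 and 1, and the other 5 genes had none in either library.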

How the results depend on the processing

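Of the 7 members, 7 were detected at a minimum of 1 read or 50 reads and in each library alone. The order of the 7 was the same in each library alone, per kb and with both strands. Scaling to other totals multiplies all genes of a library by 1 factor. As both libraries had the same order, such scaling could not change it. With TMM-scaled, RLE-scaled or totals without the most abundant gene, 2 members were higher in replicate 1, against 4. Without a minimum above 1 read, more genes entered the adjustment and 0 were higher in replicate 2, against 1. By edgeR's exact test at a BCV of 0.1, at 0.2 or at the dispersion trend, 0 were higher in either library, and 0 passed unadjusted; the trend came from the same 2 libraries. For the 5 members called, 28 of 50 repeats kept the call and 22 lost it. The repeats with 5 reads added change the ratio and not the p. Their calls could therefore not change, and they are among those kept. The 2 others were called in 0 of 20 repeats, of which those with 5 reads added could not change either. None of the members' ratios changed sign. Repeats with another minimum or with edgeR's test used the same counts and totals, so a change of sign was not possible in them.

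Scaled to all reads, the families summed to 16675 CPM for mir-130/mir-301 and 202 for mir-148/mir-152, and without the most abundant gene in the totals to 46759 and 567 CPM. With both strands in the counts mir-148/mir-152 summed to 441 CPM. Without the highest member the sums were 8067 and 232 CPM and their log2 ratio was 5.11. Leaving out 1 library gave sums of 34666 to 39996 and 451 to 453 CPM, log2 family ratios of 6.26 to 6.47 and log2 Mir130b over Mir301b of 4.97 to 5.17. The test between libraries needs both, so no value exists without 1 of them. No paired analysis was possible because there was 1 group. Depth limits Mir152 most, at 197 and 163 reads.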
